A study of Mus musculus with 16 samples.

Results

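PD-1int effector CD8 T cells were compared with naive CD8 T cells over all measured genes, in spleens of mice with leukemia. The comparison uses the 4 arrays whose titles name PD-1int CD8 cells and the 4 whose titles name naive CD8 cells, 8 of the 16 arrays of the study. All mice were female C57BL/6 mice (the strain labels read C56BL/6) that had received leukemia cells from Eµ-TCL1 mice, which carry a TCL1 transgene active in B cells and develop a disease like chronic lymphocytic leukemia, and their spleens were taken 6 weeks after the transfer. Every subset came from leukemic mice, so the naive cells are also cells of a leukemic spleen, and no cells of leukemia-free mice are among these groups. The sorted cells were lineage-negative, TCRb+ and CD8+. PD-1int cells were CD127low, CD44int-hi and PD-1int, and naive cells were CD127hi and CD44low. PD-1hi effectors (CD127low, CD44int-hi, PD-1hi) and memory cells (CD127hi, CD44hi), with 4 arrays each, share the fit and show where the difference from naive is unlike that of those subsets. Whether each of the 4 arrays stands for another mouse is not in the labels, and the p-values then cover only the spread between these samples, which may be technical.

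A naive CD8 T cell circulates through lymphoid organs, carries the homing receptor CCR7 and the IL-7 receptor, and neither divides nor kills. Antigen drives it to divide and to make granzymes, perforin and cytokines, and cells that keep meeting antigen take on inhibitory receptors such as PD-1. In chronic lymphocytic leukemia the leukemic B cells fill the spleen, and the CD8 cells around them include many with such receptors.

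Values are log2 levels of 1 probe set per gene for 22180 genes, with 2.35 the lowest and 14.13 the highest value of any array. A log2 difference of 1 is a 2-fold difference, and differences of dim genes are compressed on arrays. Levels can be compared between arrays for a gene but not between genes. Array medians ranged from 6.39 to 6.49, and no array duplicated another. Pearson's r over all genes was 0.991 to 0.993 among PD-1int arrays, 0.990 to 0.992 among naive arrays, and 0.958 to 0.966 between a PD-1int and a naive array. A gene was called higher or lower in PD-1int at a Benjamini-Hochberg adjusted p under 0.05 from limma.

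The genes behind the sort gates followed the labels and are no finding. Il7r, which encodes CD127, had 7.57, 7.91, 7.14 and 7.35 in the PD-1int arrays, against 13.04, 12.89, 13.01 and 12.92 in the naive arrays. Cd44 had 8.91, 8.62, 8.45 and 8.78 in PD-1int and 6.05, 6.23, 5.96 and 6.05 in naive, and Pdcd1, which encodes PD-1, 10.43, 9.96, 9.76 and 10.32 in PD-1int and 6.99, 7.11, 6.57 and 6.52 in naive. The identity genes were present in both subsets: Cd3e averaged 12.79 ± 0.03 in PD-1int and 12.56 ± 0.06 in naive (SD, n = 4 each), Cd8b1 12.58 ± 0.09 in PD-1int and 12.90 ± 0.04 in naive, and Cd8a 11.42 ± 0.18 in PD-1int and 11.65 ± 0.07 in naive. Cd8b1 was called lower by a log2 difference of -0.32 ± 0.07 (SE), Cd3e was called higher by 0.22 ± 0.06 (SE) (adjusted p 0.0553 in the fit of the 8 arrays alone), and Cd8a was not called (adjusted p = 0.112). Without PD-1int array 2, which read highest in its subset, Cd8a was called lower (-0.32, adjusted p = 0.0178).

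PD-1int cells differed from naive cells in 5037 of the 22180 genes (22.7%). Of these, 2639 were higher in PD-1int (11.9% of all genes) and 2398 lower (10.8%). Differences of at least 2-fold were found for 1028 called genes (4.63%): 685 genes were called higher by at least 2-fold (3.09%) and 343 lower by at least 2-fold (1.55%), and beyond 16-fold there were 29 rises and 6 falls. The median log2 difference over all genes was -0.03, and the median standard error of a difference was 0.10. The smallest difference called was 0.18. The 4 arrays of each subset did not overlap for 2705 genes higher in PD-1int (12.2%) and 2535 lower (11.4%), and 10.7% of all genes were both called higher and without overlap, 9.27% both called lower and without overlap. Calls depended on brightness: 3.48% of the 5545 dimmest genes (mean levels 2.69 to 5.51) were called, against 47.1% of the 5545 brightest (8.39 to 14.04), so a dim gene that was not called may still differ. In bulk samples such as these, fewer cells that express a gene and less RNA per cell cannot be told apart.

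**Figure D1:**
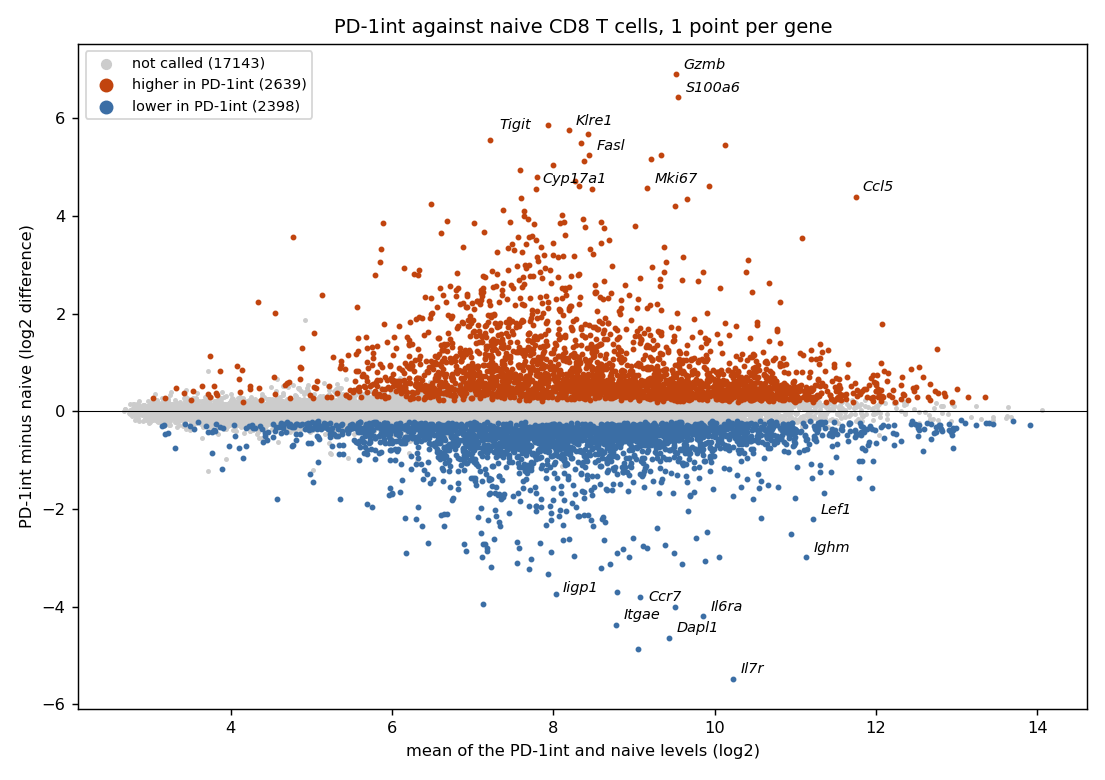
Log2 difference of PD-1int minus naive (vertical axis) against the mean of the PD-1int and naive log2 levels (horizontal axis), 1 point for each of 22180 genes. Orange points are the 2639 genes called higher in PD-1int, blue points the 2398 called lower, and grey points were not called; the orange cloud reaches 6.91 at Gzmb and the blue cloud -5.47 at Il7r.

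Gzmb, a protease of cytotoxic granules that triggers death of the target cell, rose most. Its PD-1int arrays read 12.77, 13.04, 13.16 and 12.94, against 6.45, 5.54, 6.51 and 5.79 in the naive arrays, a rise of 119.9-fold (log2 difference 6.91 ± 0.17 (SE), adjusted p = 2.53e-15). The lowest PD-1int array lay more than 6 log2 units above the highest naive array. S100a6, a calcium-binding protein, followed with 6.44, and the rises of the next 13 genes lay between 4.71 and 5.86.

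Among these 15 are also enzymes and lipid-binding proteins of general cell function. Zdhhc2, an enzyme that attaches palmitate to proteins, had 9.84, 10.05, 10.03 and 10.07 in PD-1int and 4.42, 4.32, 4.90 and 4.11 in naive (47.1-fold). Car5b, a mitochondrial carbonic anhydrase, had 10.94, 10.55, 11.17 and 11.09 in PD-1int and 6.09, 5.82, 5.49 and 5.87 in naive (34.8-fold). Osbpl3, of the oxysterol-binding protein family, had 10.77, 10.39, 10.54 and 10.82 in PD-1int and 5.73, 5.77, 6.04 and 6.11 in naive (26.3-fold). In none of these 3 did any array of PD-1int overlap with one of naive. Against memory cells, Zdhhc2 was higher in PD-1int by 2.24 (adjusted p = 1.61e-06), Car5b by 3.95 (2.38e-11) and Osbpl3 by 1.63 (3.04e-08). Ctla2b, related to inhibitors of cysteine proteases, rose over naive by 4.79, and its difference from memory, -0.19, was not called (adjusted p = 0.456).

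The largest falls included genes of naive circulation and of signal reception. After Il7r came Slc28a2b, of a nucleoside transporter family, at -4.88, and Dapl1 at -4.63. Actn1, which encodes the actin crosslinker alpha-actinin, had 7.59, 7.66, 7.50 and 7.26 in PD-1int and 11.54, 11.49, 11.54 and 11.49 in naive, 16.1-fold lower in PD-1int (log2 difference -4.01 ± 0.16 (SE), adjusted p = 1.57e-12). Nedd4l, a ubiquitin ligase, had 5.66, 6.70, 6.37 and 5.62 in PD-1int and 9.41, 9.15, 9.32 and 9.38 in naive. Treml2, a TREM-like surface receptor, had 7.30, 7.30, 6.20 and 7.16 in PD-1int and 10.16, 10.33, 10.18 and 10.14 in naive, so array 3 of PD-1int stood about 1 log2 unit below the other PD-1int arrays. Gpr34, a receptor for lysophosphatidylserine, had 5.56, 5.80, 5.65 and 5.50 in PD-1int and 9.0, 8.87, 9.14 and 8.28 in naive, and the 4 PD-1int arrays lay close together near the dim end of the scale. Igfbp4, a binding protein of insulin-like growth factors, fell by 3.13 on the log2 scale and Fam241a by 3.12. For each of the 15 genes with the largest falls, as for each of the 15 with the largest rises, the highest array of the lower subset lay below the lowest array of the higher subset, which the choice of these genes required.

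**Figure D2:**
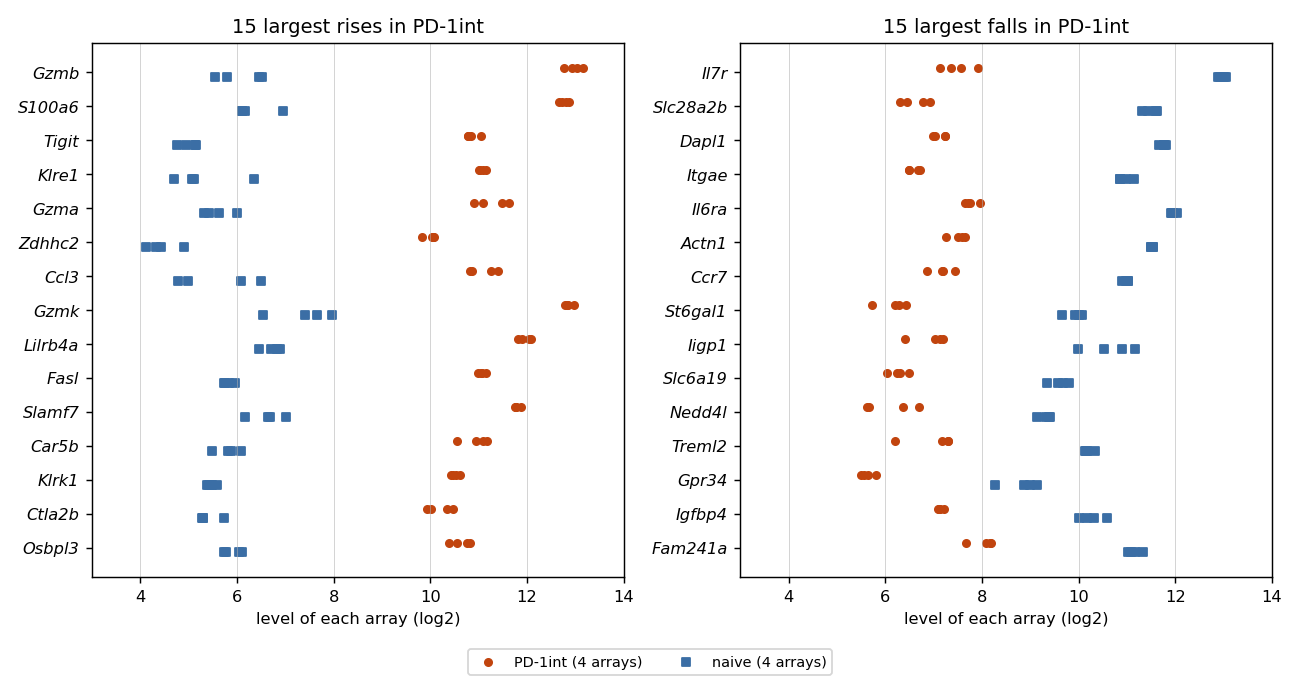
Log2 level of each array (horizontal axis) for the 15 genes with the largest rise (left) and the 15 with the largest fall (right) in PD-1int against naive. Orange circles are the 4 PD-1int arrays and blue squares the 4 naive arrays; the 2 subsets do not overlap for any of these genes, as their choice required.

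Genes were grouped into 38 lists by role, 6 of them markers of other cells. The lists name 799 genes, of which 711 were measured by a probe set with a single gene symbol. The others were not analysed here. The shares below are read against 11.9% of all genes higher and 10.8% lower, and a list's median against -0.03 over all genes. These shares are not matched for brightness. Of the 5545 brightest genes 1536 were higher and 1075 lower, so a bright list can exceed the shares over all genes without exceeding those of bright genes.

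**Figure D3:**
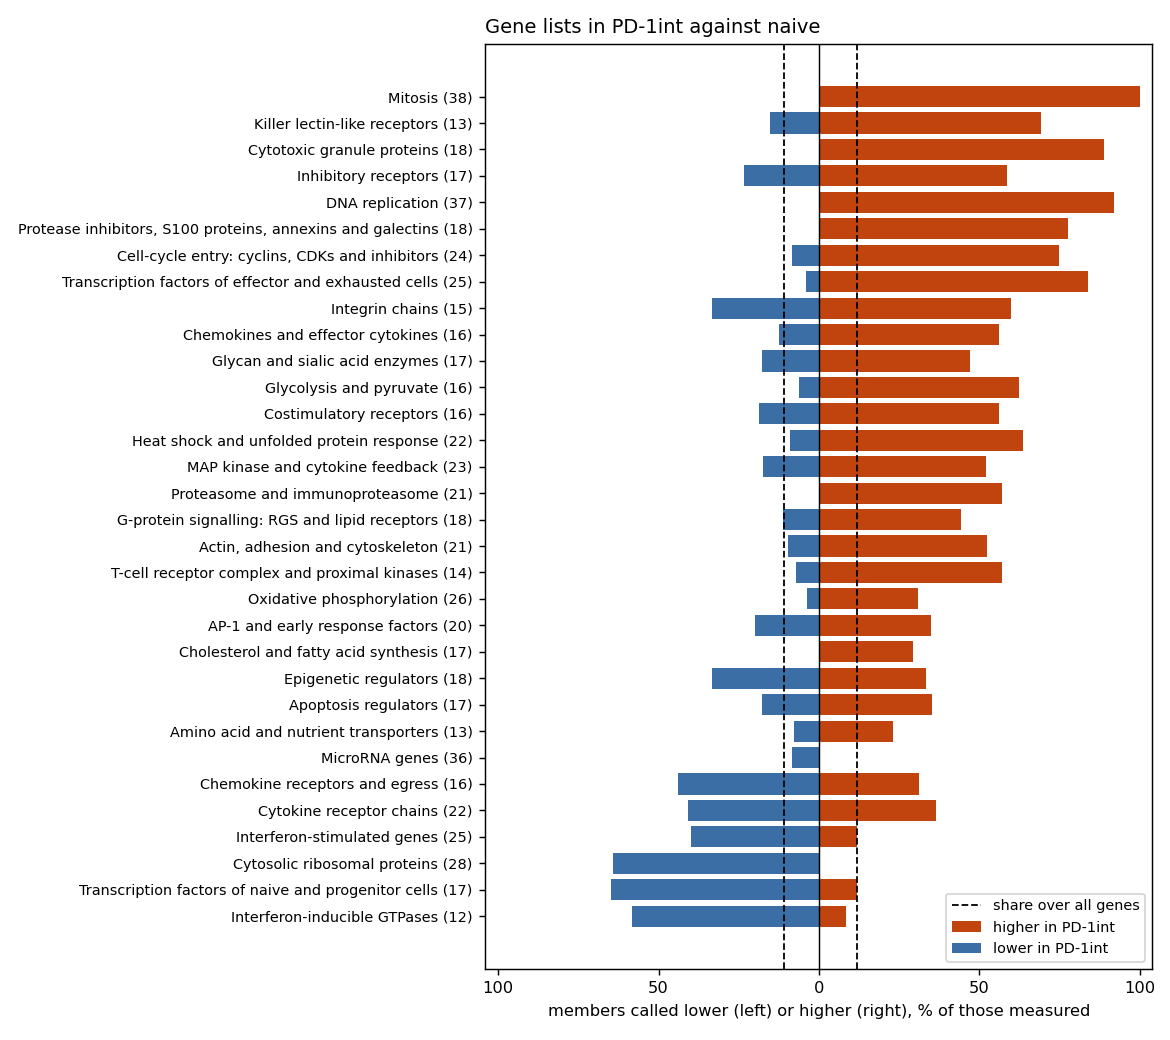
Share of the measured members of each of 32 gene lists called higher (orange, to the right) or lower (blue, to the left) in PD-1int against naive, in percent, with the number measured in brackets and the lists ordered by median log2 difference. Dashed lines mark the shares over all genes, 11.9% higher and 10.8% lower, which are not matched for the brightness of a list. Of the listed genes, 38 of 38 mitosis genes were higher and 18 of 28 ribosomal protein genes lower.

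The killing machinery rose almost as a whole. Of 18 cytotoxic granule genes, 16 were called higher and 0 lower in PD-1int, with a median log2 difference of 1.45, and 12 rose by at least 2-fold. Gzma had 11.09, 11.63, 11.49 and 10.90 in PD-1int and 5.42, 6.01, 5.31 and 5.62 in naive, and Gzmk 12.79, 12.85, 12.97 and 12.83 in PD-1int and 7.98, 7.42, 7.66 and 6.54 in naive. Both encode granule proteases, and their array ranges were far apart. Fasl, the ligand that triggers the death receptor Fas, had 11.06, 10.99, 11.06 and 11.16 in PD-1int and 5.74, 5.97, 5.74 and 5.84 in naive, with an SD of 0.07 in PD-1int and 0.11 in naive and the smallest adjusted p of the list (1.19e-17). Against memory cells 15 of the 18 were higher and 2 lower in PD-1int, where 8.49% of all genes were higher and 7.66% lower. Those 2 were Gzmm, a granzyme, and Ctsw, a cathepsin of cytotoxic cells, both named after their values were seen. Gzmm averaged 9.32 ± 0.27 in PD-1int (SD, n = 4), with a log2 difference of -2.81 from memory (adjusted p = 5.56e-11) and of 1.77 from naive. Against PD-1hi cells 3 of the 18 were higher and 1 lower in PD-1int, where 1.94% of all genes were higher and 1.37% lower. The comparisons with naive, memory and PD-1hi share the PD-1int arrays and are not independent of each other.

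Protease inhibitors, S100 proteins, annexins and galectins rose in 14 of 18 cases, with 0 falls and a median of 1.12. Ctla2a averaged 12.24 ± 0.07 in PD-1int and 7.61 ± 0.33 in naive, and Anxa2, a membrane-binding annexin, 10.51 ± 0.10 in PD-1int and 6.75 ± 0.16 in naive (SD, n = 4 each). Against PD-1hi cells 0 of the 18 were called.

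Of 16 chemokine and cytokine genes, 9 were higher and 2 lower, and Ccl3 rose most, by 5.50 (45.3-fold). Ccl5, a chemokine that draws T cells and monocytes, had 13.98, 13.99, 13.98 and 13.83 in PD-1int and 9.40, 9.43, 9.72 and 9.64 in naive. Ifng, the cytokine interferon gamma, had 9.65, 9.86, 10.72 and 10.06 in PD-1int and 5.97, 6.64, 5.82 and 6.31 in naive. Xcl1, which draws cross-presenting dendritic cells, had 9.51, 8.56, 9.24 and 9.46 in PD-1int and 5.46, 5.53, 5.77 and 6.33 in naive. Ccl5, Ifng and Xcl1 were separate in every array. They differed in their place among the antigen-experienced subsets: the log2 difference of Xcl1 was -1.35 from memory (adjusted p = 6.50e-04) and 1.07 from PD-1hi (0.0199), while that of Ifng was 3.29 from memory (1.60e-09) and -0.99 from PD-1hi (0.00716). The 2 lower genes were Ltb and Lta, which encode the lymphotoxins of lymphoid tissue organisation. Ltb had 11.23, 11.28, 11.09 and 11.06 in PD-1int and 12.69, 12.68, 12.82 and 12.75 in naive, a log2 difference of -1.57 ± 0.10 (SE, adjusted p = 2.01e-09), and Lta fell by 0.50.

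Killer lectin-like receptors, which natural killer cells and some T cells use to sense stressed or MHC-bearing cells, rose in 9 of 13 cases, each by at least 2-fold, and fell in 2. Their median was 1.60. Klre1 had 11.10, 11.03, 11.001 and 11.15 in PD-1int and 6.36, 5.10, 4.71 and 5.07 in naive, with naive array 1 more than 1 unit above the other naive arrays. Klrk1, which encodes the activating receptor NKG2D, had 10.54, 10.62, 10.42 and 10.48 in PD-1int and 5.37, 5.48, 5.43 and 5.59 in naive. Klrg1, a receptor of short-lived effector cells, had 10.13, 10.91, 10.88 and 10.59 in PD-1int and 5.65, 6.35, 5.85 and 6.23 in naive, and Klrc1, which encodes the NKG2A chain, 8.62, 9.60, 9.17 and 9.22 in PD-1int and 6.19, 6.25, 6.16 and 6.0 in naive. Neither of the 2 falls was large: Klri2 fell by 0.36, near the dim end of the scale, and Klrd1, which encodes the CD94 partner of the NKG2 chains, by 0.43 ± 0.14 (SE, adjusted p = 0.0373). The call on Klrd1 was lost without any one of 6 of the 8 arrays, with adjusted p between 0.0542 and 0.116. Against memory the list ran the other way for some members, with 2 higher and 5 lower, and against PD-1hi 5 were higher and 0 lower. NKG2 and Ly49 genes have near-identical relatives, so their probe sets may read more than 1 member.

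Among 16 costimulatory receptors, 9 were higher and 3 lower. Slamf7, a SLAM-family receptor of cytotoxic cells, had 11.78, 11.87, 11.78 and 11.75 in PD-1int and 6.64, 7.02, 6.18 and 6.69 in naive. Tnfrsf9, the activation-induced receptor 4-1BB, averaged 9.29 ± 0.24 in PD-1int and 7.50 ± 0.19 in naive, Cd48 12.67 ± 0.08 in PD-1int and 11.97 ± 0.09 in naive, and Cd7 12.55 ± 0.23 in PD-1int and 11.56 ± 0.14 in naive. The falls were Cd226, Slamf6 and Tnfrsf14. Cd226, an activating receptor that competes with TIGIT for shared ligands, had 7.81, 9.79, 8.94 and 7.34 in PD-1int and 11.11, 11.14, 11.09 and 10.89 in naive. The PD-1int arrays of Cd226 were far apart from each other (SD 1.11, against 0.11 in naive), yet all lay below the naive arrays, and the difference was -2.59 ± 0.58 (SE) with an adjusted p of 0.00241. Slamf6, a marker of progenitor-like cells, fell by 1.02 and Tnfrsf14 by 0.53.

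Of 17 inhibitory receptors and related enzymes, 10 were higher and 4 lower, one of the 10 being Pdcd1, whose rise the sort on PD-1 fixed. Tigit rose most in the list, by 5.86 (58.2-fold, adjusted p = 6.95e-17), and Lilrb4a rose by 5.24 (37.9-fold). Those that fell were Nt5e, Btla, Cd274 and Vsir. Nt5e, the ectoenzyme CD73 that makes adenosine, had 8.90, 8.11, 7.66 and 7.69 in PD-1int and 10.54, 10.38, 10.66 and 10.37 in naive, a log2 difference of -2.40. Entpd1, the ectoenzyme CD39 that acts before CD73 on the same route, rose by 3.19, with 9.89, 9.41, 9.68 and 9.89 in PD-1int and 6.47, 6.51, 6.57 and 6.57 in naive. The 2 enzymes of the route thus moved in opposite directions, each beyond the spread of its arrays. Btla, Cd274, which encodes PD-L1, and Vsir fell by 0.83, 1.25 and 0.49.

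Cytokine receptor chains were split, with 8 of 22 higher and 9 lower, one of the 9 being Il7r, whose fall the sort on CD127 fixed. Il18rap, a chain of the IL-18 receptor, had 9.74, 9.65, 9.50 and 9.27 in PD-1int and 6.39, 5.64, 6.35 and 5.75 in naive. Its difference from PD-1hi was 2.37 (adjusted p = 4.53e-05), and that from memory, -0.46, was not called (0.343). Il10ra and Il10rb, both chains of the IL-10 receptor, rose by 2.57 and 0.97, and Il12rb1 and Il2rb by 2.06 and 1.79. Both chains of the IL-6 receptor fell: Il6ra had 7.95, 7.75, 7.65 and 7.71 in PD-1int and 12.04, 11.94, 11.90 and 11.94 in naive (18.3-fold lower in PD-1int, adjusted p = 6.95e-17), and Il6st, the shared signalling chain, 9.69, 10.001, 9.63 and 9.45 in PD-1int and 12.27, 12.14, 12.28 and 12.14 in naive. Ifngr2, needed for the response to interferon gamma, had 6.91, 6.97, 6.62 and 6.56 in PD-1int and 10.21, 9.49, 9.70 and 9.55 in naive. These falls were complete over the arrays, with no overlap between the subsets. The smaller rise of Il21r (0.50) was not called without PD-1int array 3 (0.42, adjusted p = 0.0501), nor that of Ifnar2 (0.34) without naive array 1 (0.29, adjusted p = 0.0526).

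Homing and egress genes pointed both ways, with 5 of 16 higher and 7 lower. Cx3cr1, the fractalkine receptor of cytotoxic effector cells, had 10.96, 10.98, 10.87 and 10.83 in PD-1int and 7.03, 7.24, 7.54 and 6.65 in naive. Ccr2, a receptor for inflammatory chemokines, had 9.31, 9.73, 9.84 and 9.67 in PD-1int and 5.73, 5.31, 5.65 and 5.88 in naive. Cxcr3 and Cxcr5, receptors for inflammatory and for follicular chemokines, rose by 2.07 and 2.16. Ccr7, which brings naive cells into lymphoid tissue, had 7.44, 6.87, 7.19 and 7.18 in PD-1int and 10.97, 11.02, 11.02 and 10.89 in naive, a log2 difference of -3.81. S1pr1, which lets cells leave lymphoid organs, fell by 1.25, Ccr9, a gut-homing receptor, by 1.42 and Gpr183, an oxysterol receptor, by 0.96, whereas S1pr5, another sphingosine phosphate receptor, rose by 0.85.

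Integrin chains changed in 14 of 15 cases, 9 up and 5 down. Itgal and Itgb2, the pair that forms LFA-1, rose together by 1.21 and 1.26. Itgal had 11.84, 11.94, 12.02 and 11.94 in PD-1int and 10.74, 10.76, 10.59 and 10.79 in naive, and Itgb2 11.94, 12.09, 12.06 and 12.04 in PD-1int and 10.80, 10.74, 10.61 and 10.94 in naive. Itga2, a chain of a collagen receptor, had 10.76, 10.18, 9.75 and 10.41 in PD-1int and 6.48, 6.67, 6.81 and 6.09 in naive. Itgae, the CD103 chain that binds E-cadherin, had 6.71, 6.68, 6.50 and 6.48 in PD-1int and 10.98, 10.86, 10.86 and 11.14 in naive, 20.7-fold lower in PD-1int, and its partner chain Itgb7 fell by 0.67. Itga6, Itgb3 and Itga5 fell by 0.64, 0.64 and 0.65.

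Of 14 genes of the T-cell receptor complex and its first kinases, 8 were higher and 1, Cd8b1, lower, with a median of 0.22. Fyn, a Src-family kinase, had 11.82, 11.88, 11.83 and 11.89 in PD-1int and 10.75, 10.73, 10.82 and 10.71 in naive, and it was the sole member past 2-fold (2.14-fold). Zap70, the kinase that binds the phosphorylated receptor, had 10.93, 10.95, 11.08 and 10.96 in PD-1int and 10.32, 10.28, 10.16 and 10.43 in naive. Cd2 and the adaptor Lat rose by 0.54 and 0.46. These shifts were small beside those of the effector genes, and still larger than the spread of the arrays.

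Genes in a list of MAP kinase and cytokine feedback, which also holds signalling adaptors, rose in 12 of 23 cases and fell in 4. Dusp5, a phosphatase of ERK, had 10.23, 10.22, 10.21 and 10.17 in PD-1int and 7.70, 7.91, 7.69 and 8.30 in naive. Ubash3b, a phosphatase that acts on ZAP70-type kinases, rose by 1.71, the adaptor Sh2d1a, also known as SAP, by 1.65 and the adaptor Sh2d2a by 1.39. Dgka, a diacylglycerol kinase that limits Ras signalling, had 12.67, 12.60, 12.48 and 12.57 in PD-1int and 13.34, 13.33, 13.39 and 13.28 in naive, a log2 difference of -0.76. Ptpn6, the phosphatase SHP-1, fell by 0.67, Dusp10 by 0.78 and Socs1 by 0.34. Among 18 regulators of G-protein signalling and lipid receptors, 8 were higher and 2 lower. The prostaglandin E receptors Ptger2 and Ptger4 rose by 1.57 and 1.36, Gpr174, a receptor for lysophosphatidylserine, by 1.07 and S1pr2 by 1.26, and Rgs10 fell by 1.76. Gpr34 and Gpr174, which recognise related lipids, thus moved in opposite directions.

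Enzymes of surface glycans rose in 8 of 17 cases and fell in 3. Sialyltransferases went both ways. St6gal1, which caps glycans of B and T cells with sialic acid, had 6.27, 6.44, 6.20 and 5.72 in PD-1int and 10.07, 10.003, 9.91 and 9.65 in naive, 13.5-fold lower in PD-1int, and its difference from memory was -3.71 (adjusted p = 4.13e-11). St3gal4 and St3gal6, which add it in another linkage, rose by 1.13 and 1.10. St8sia1 and St8sia6, which extend sialic acid chains, fell by 2.86 and 0.53, while St8sia4, which makes polysialic acid, rose by 0.90. Chst2, a sulfotransferase of selectin ligands, rose by 1.25. Cytoskeletal genes rose in 11 of 21 cases and fell in 2. Myo1f, a myosin of haematopoietic cells, had 11.94, 11.91, 11.94 and 12.07 in PD-1int and 8.73, 8.59, 9.09 and 9.06 in naive, and Actg1, Cdc42ep3 and Flna rose by 1.40, 1.15 and 0.97. The falls were Actn1 and Rhob (-0.56).

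Transcription factors of effector and exhausted cells rose in 21 of 25 cases, with 1 fall and a median of 0.99. Eomes and Tbx21, the T-box factors of cytotoxic cells, rose by 3.15 and 2.58. Bhlhe40, a repressor that supports cytokine output, had 9.42, 9.45, 9.50 and 9.17 in PD-1int and 6.14, 5.78, 6.61 and 6.33 in naive, and Maf, a factor tied to IL-10 production, 9.71, 8.81, 9.63 and 9.63 in PD-1int and 5.59, 5.28, 5.20 and 5.18 in naive. The fall was Rbpj, the DNA-binding partner of Notch, at -0.50 ± 0.14 (SE) (adjusted p = 0.0112). Of 17 genes in a list of naive and progenitor factors, 11 were lower and 2 higher, with a median of -0.49. One of the 11, Nsg2, is no transcription factor but a vesicle protein gene best known from neurons, and it had 6.89, 6.13, 6.77 and 6.32 in PD-1int and 9.35, 9.42, 9.35 and 9.56 in naive. Foxp1 and Bach2, which keep T cells quiescent, fell by 1.59 and 2.03, and Lef1 by 2.21. Myb rose by 0.77. The rise of Bcl6 (0.35 ± 0.12, SE, adjusted p = 0.0498) was not called in the fit of the 8 arrays alone (adjusted p = 0.0948), with the mean of each gene's probe sets (0.0501) or without any one of 5 arrays (0.0697 to 0.160).

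The AP-1 and early response list was mixed, with 7 of 20 higher, 4 lower and a median of 0.09. Egr1, an early response factor to receptor signals, had 8.32, 8.28, 8.78 and 8.41 in PD-1int and 7.26, 7.54, 7.19 and 7.52 in naive. Jun had 7.21, 8.05, 8.31 and 8.51 in PD-1int and 8.77, 9.29, 9.19 and 9.30 in naive, a log2 difference of -1.12, while its relatives Junb and Fosl2 rose by 0.52 and 0.82. Tnfaip3, the ubiquitin editor A20 that damps NF-kB, rose by 0.65, and Nfkbia, the NF-kB inhibitor, fell by 0.34. Zfp36l1, which degrades cytokine transcripts, fell by 0.74. The fall of Cd69, 0.41, was not called without any one of 5 arrays (adjusted p 0.0583 to 0.120). Epigenetic regulators were split evenly, 6 of 18 higher and 6 lower. Ezh2, the methyltransferase of Polycomb complex PRC2, had 10.80, 11.08, 10.92 and 10.88 in PD-1int and 8.73, 8.93, 8.69 and 9.24 in naive, whereas its paralogue Ezh1 fell by 0.48. The maintenance methyltransferase Dnmt1 rose by 0.77, and Tet1 and Tet3, which oxidise methylcytosine, fell by 1.15 and 1.21. Hmgb2 and Hells rose by 2.38 and 2.11, and the methyltransferase Kmt2a fell by 0.35.

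The mitosis list rose more uniformly than any other list, though Smc4, a chain of condensin outside the list, fell by 0.80. All 38 measured members of the list were called higher in PD-1int than in naive, 35 of them by at least 2-fold, with a median of 2.31. The mean over the list was 8.65, 9.11, 8.91 and 9.03 in the PD-1int arrays, 9.89, 9.65, 9.49 and 9.68 in PD-1hi, 8.42, 7.46, 7.38 and 8.27 in memory and 6.70, 6.57, 6.58 and 6.72 in naive. PD-1int array 1 was the lowest of its subset and still above all memory arrays, whose values fell apart into a higher and a lower pair. Mki67, the proliferation antigen Ki-67, had 11.16, 11.63, 11.50 and 11.51 in PD-1int and 7.19, 6.83, 6.52 and 6.98 in naive (23.8-fold, adjusted p = 7.58e-11). Kif11, a motor of the mitotic spindle, had 9.22, 10.01, 9.69 and 9.79 in PD-1int and 5.92, 5.93, 5.61 and 5.92 in naive, and Cdk1, the mitotic kinase, 9.35, 9.61, 9.59 and 9.57 in PD-1int and 5.90, 5.79, 6.09 and 6.87 in naive. Of the 38 genes 36 were higher than in memory and 0 lower, and 0 were higher than in PD-1hi and 12 lower.

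DNA replication genes rose in 34 of 37 cases, with 0 falls and a median of 1.12. Uhrf1, which carries DNA methylation through replication, had 9.27, 9.39, 9.36 and 9.52 in PD-1int and 6.87, 6.84, 6.58 and 7.33 in naive. Tk1, the thymidine kinase of S phase, rose by 2.39, Chaf1a, a chain of the histone chaperone CAF-1, by 1.74 and Rpa2, a single-strand DNA-binding protein, by 1.40. Against memory 20 of the 37 were higher and 0 lower, and against PD-1hi 0 were higher and 1 lower. Cell-cycle entry genes rose in 18 of 24 cases. The inhibitors were not all low: Cdkn1a, which encodes p21, had 8.69, 8.68, 8.93 and 8.74 in PD-1int and 6.85, 7.06, 6.78 and 6.69 in naive, and Cdkn2c, which encodes p18, 8.16, 8.57, 8.59 and 8.44 in PD-1int and 6.56, 6.51, 6.90 and 6.60 in naive, both higher in PD-1int. Cdkn1b, the p27 inhibitor of resting cells, fell by 0.40 ± 0.11 (SE, adjusted p = 0.0162, and 0.0549 without naive array 3). Myc, a driver of growth on activation, had 10.08, 9.01, 9.47 and 9.57 in PD-1int and 10.34, 10.14, 10.75 and 10.55 in naive, a log2 difference of -0.91 ± 0.19 (SE). Of 45 histone genes, a class singled out after its values were seen, 15 were higher and 2 lower.

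**Figure D4:**
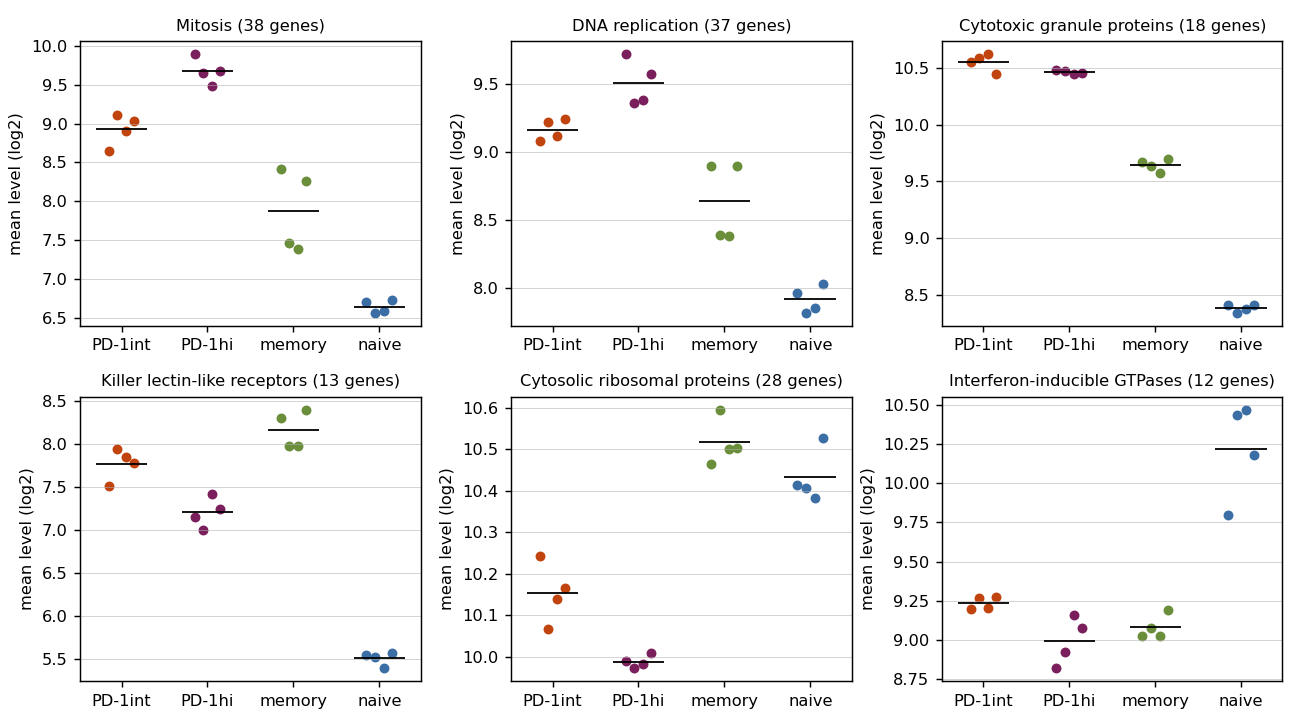
Mean log2 level over the measured members of 6 gene lists (vertical axes, each with its own range) in each of the 16 arrays, by subset from left to right PD-1int, PD-1hi, memory and naive; points are arrays and lines their means. Mitosis means lie between 8.65 and 9.11 in PD-1int and 6.57 and 6.72 in naive, and interferon-inducible GTPase means between 9.20 and 9.27 in PD-1int and 9.80 and 10.5 in naive.

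Promoter sequences of the cell division genes are shown because the whole list moved together. They cover 250 bases before to 50 after the RefSeq start of each gene (GRCm38.p6), 5′ to 3′ on the gene's strand. Capitals in the mitosis genes mark the CCAAT box (CCAAT) and the cell-cycle homology region (TTTGAA), searched on both strands, and in Dtl, which marks replication factors for degradation, the E2F core (GCGGGAA). A match on the other strand stands as its reverse complement. The 3 mitosis genes are those with the largest rise and a listed promoter, and Dtl, with a rise of 2.78, is the same for the replication genes.
Mki67 (chr7:135716330-135716629, minus strand): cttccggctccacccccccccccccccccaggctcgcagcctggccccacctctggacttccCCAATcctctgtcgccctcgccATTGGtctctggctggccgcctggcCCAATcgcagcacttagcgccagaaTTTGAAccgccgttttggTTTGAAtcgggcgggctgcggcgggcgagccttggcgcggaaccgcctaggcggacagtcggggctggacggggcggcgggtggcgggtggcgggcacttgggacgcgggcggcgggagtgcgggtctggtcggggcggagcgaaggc
Kif11 (chr19:37376132-37376431, plus strand): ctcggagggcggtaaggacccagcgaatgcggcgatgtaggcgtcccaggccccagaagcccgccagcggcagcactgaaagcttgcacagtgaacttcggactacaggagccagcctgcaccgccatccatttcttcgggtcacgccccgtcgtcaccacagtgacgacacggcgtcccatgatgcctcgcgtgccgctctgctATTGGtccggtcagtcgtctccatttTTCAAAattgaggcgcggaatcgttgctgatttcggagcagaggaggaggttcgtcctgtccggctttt
Birc5 (chr11:117848987-117849286, plus strand): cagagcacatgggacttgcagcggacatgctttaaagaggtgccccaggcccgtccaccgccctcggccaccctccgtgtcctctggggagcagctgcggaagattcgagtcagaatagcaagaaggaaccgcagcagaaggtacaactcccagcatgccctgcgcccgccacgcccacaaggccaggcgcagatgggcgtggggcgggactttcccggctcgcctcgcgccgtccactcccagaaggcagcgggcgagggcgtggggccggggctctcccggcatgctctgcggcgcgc
Dtl (chr1:191575495-191575794, minus strand): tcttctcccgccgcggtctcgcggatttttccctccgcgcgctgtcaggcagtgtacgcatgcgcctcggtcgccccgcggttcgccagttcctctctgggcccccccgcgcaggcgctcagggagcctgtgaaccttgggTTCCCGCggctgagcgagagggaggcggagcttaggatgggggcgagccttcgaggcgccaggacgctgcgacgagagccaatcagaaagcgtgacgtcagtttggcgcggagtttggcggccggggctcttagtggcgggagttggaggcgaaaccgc
Mki67 held 3 CCAAT boxes and 2 cell-cycle homology regions, the nearest at positions -98 to -93 from the start. Kif11 held 1 of each, at -45 to -41 and at -19 to -14. Birc5, which encodes the chromosomal passenger protein survivin and rose by 3.57, held neither in this window. Over the list, 24 of 33 mitosis promoters held CCAAT (72.7%), against 6533 of the 16990 measured genes whose symbol matched a listed promoter (38.5%), and 25 of 33 held TTTGAA (75.8%), against 2690 of 16990 (15.8%). DNA replication promoters held GCGGGAA in 16 of 31 cases (51.6%), mitosis promoters in 0 of 33, and promoters of all measured genes in 1035 of 16990 (6.09%). A match describes letters in a window and not a bound site. The lists were made by role and the shares count members whatever their call, so they describe the lists and not the rises.

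Metabolic genes moved less than division genes. Glycolysis and glucose uptake genes rose in 10 of 16 cases and fell in 1 (2 without naive array 1 or PD-1int array 1), with a median of 0.46 and 0 rises of 2-fold. Slc2a3 and Slc2a1, the glucose transporters GLUT3 and GLUT1, rose by 0.87 and 0.77, Pfkp, a phosphofructokinase, by 0.93 and Gapdh by 0.79. The fall was Pdk1, the kinase that holds back pyruvate dehydrogenase: 7.43, 7.12, 7.22 and 7.22 in PD-1int and 9.35, 9.43, 9.55 and 9.24 in naive, a log2 difference of -2.15 ± 0.10 (SE, adjusted p = 1.48e-11). Oxidative phosphorylation genes were mostly not called, 8 of 26 being higher and 1 lower, with a median of 0.11. Ndufa1, Cox5b, Cox5a and Sdhb, chains of respiratory complexes, rose by 0.55, 0.54, 0.51 and 0.61, and Sdha fell by 0.35. Sterol and fatty acid synthesis genes rose in 5 of 17 cases, among them Acly (0.41), Dhcr7 (0.57), Fdft1 (0.55) and Sqle (0.70, adjusted p 0.0519 without PD-1int array 2). Without PD-1int array 2, 3 of the 17 were called. Of 13 amino acid and nutrient transporters, 3 rose and 1 fell (2 without PD-1int array 2 or 3 or naive array 4, and 2 with the array number as a block). The rises were Slc43a1 (0.76), Slc29a1 (0.52) and Slc1a5 (0.26, adjusted p 0.0964 with the mean of its probe sets). The fall was Slc6a19, a transporter of neutral amino acids, with 6.23, 6.49, 6.29 and 6.04 in PD-1int and 9.56, 9.68, 9.81 and 9.34 in naive. Slc6a19 did not differ detectably from memory (-0.32, adjusted p = 0.0679). The oxidative phosphorylation, sterol and transporter lists averaged 10.28, 8.87 and 9.01 in PD-1int, within the range of the 5545 brightest genes (8.39 to 14.04). As 1536 of those genes were higher, the shares higher in these lists (30.8%, 29.4% and 23.1%) do not stand out among bright genes.

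Cytosolic ribosomal protein genes were lower in PD-1int by small amounts. Of 28 measured, 18 were lower and 0 higher, with a median of -0.31. The list mean was 10.24, 10.07, 10.14 and 10.17 in PD-1int and 10.41, 10.41, 10.38 and 10.53 in naive, with no overlap. Rps19 had 11.74, 11.54, 11.55 and 11.58 in PD-1int and 12.18, 12.19, 12.25 and 12.30 in naive, 1.55-fold lower in PD-1int (adjusted p = 2.15e-05). Rpl14, Rpl13 and Rps4x fell by 0.51, 0.48 and 0.37. Against memory 19 of the 28 were lower and 0 higher, and against PD-1hi 1 was higher and 0 lower. Ribosomal protein genes have many processed pseudogenes that arrays may not tell apart.

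Small nucleolar RNAs, which guide the modification of ribosomal and spliceosomal RNA and are mostly made from introns of host genes, were more often lower than higher in PD-1int, and most were not called. This class was singled out after its values were seen. Of 74 measured, 27 were lower, 1 higher and 46 not called, 37.8% called, with a median of -0.48. Snord99, Snora44 and Snora61 lie in the host gene Snhg12 on chromosome 4 (GRCm38.p6) and fell by 1.59, 1.04 and 0.65, beside a log2 difference of -1.22 in Snhg12 itself. Snord22 lies in Snhg1, with log2 differences of -1.27 for Snord22 and -1.02 for Snhg1. Snora33 lies in the ribosomal protein gene Rps12, with -1.36 for Snora33 and -0.25 for Rps12, and Snord43 in Rpl3, with -0.53 for Snord43 and -0.49 for Rpl3. Of the 21 lower small nucleolar RNAs that lie in a single measured host gene, 15 had a host that was lower too (71.4%, in 13 different hosts) and 6 a host that was not called. Of the 32 that were not called, 12 also lay in a host that was lower (37.5%). A probe set of such an RNA can also read the host's unspliced transcript, and that was not tested.

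In both interferon lists more genes were lower than higher in PD-1int. Of 25 interferon-stimulated genes, 3 were higher and 10 lower, with a median of -0.19. Oasl2, of the antiviral oligoadenylate synthetase family, had 6.85, 5.98, 6.36 and 6.73 in PD-1int and 8.68, 9.17, 9.29 and 9.57 in naive, a log2 difference of -2.70. Oas2 fell by 1.61, Usp18, which removes ISG15 from proteins, by 1.05 and Irf9, of the interferon signalling complex, by 0.40. Against this direction Mx1, an antiviral GTPase, had 7.01, 7.58, 7.19 and 7.31 in PD-1int and 5.95, 6.17, 6.19 and 6.39 in naive, a rise of 1.10, and Isg15 and Rsad2 rose by 0.44 and 0.41. The order among the effector subsets was different: 11 of the 25 were higher in PD-1int than in PD-1hi and 0 lower.

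Of 12 interferon-inducible GTPases, which attack vacuoles of intracellular pathogens, 7 were lower in PD-1int and 1 higher, with a median of -0.71. Iigp1 had 7.02, 7.19, 6.42 and 7.13 in PD-1int and 9.98, 11.16, 10.89 and 10.53 in naive, 13-fold lower in PD-1int. Igtp had 9.39, 9.48, 9.63 and 9.44 in PD-1int and 11.05, 11.85, 12.05 and 11.74 in naive, and Irgm2 9.42, 9.38, 9.32 and 9.32 in PD-1int and 10.87, 11.27, 11.29 and 10.94 in naive. The arrays of the 2 subsets did not overlap for these 3 genes. Irgm1 fell by 1.22, and Gbp3 was the member that rose, by 0.69. The list mean was 9.20, 9.27, 9.20 and 9.27 in PD-1int and 9.80, 10.44, 10.47 and 10.18 in naive, so naive array 1 was the lowest of its subset. Without naive array 1, 11 of the 12 were called lower.

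The promoters of Igtp and Irgm2, 2 GTPase genes with large falls, are shown from the same RefSeq windows. Capitals mark the core of an interferon-stimulated response element (GAAA, any 2 bases, GAAA, searched on both strands). Both genes were chosen after their values were seen, by their fall and not by this element.
Igtp (chr11:58199306-58199605, plus strand): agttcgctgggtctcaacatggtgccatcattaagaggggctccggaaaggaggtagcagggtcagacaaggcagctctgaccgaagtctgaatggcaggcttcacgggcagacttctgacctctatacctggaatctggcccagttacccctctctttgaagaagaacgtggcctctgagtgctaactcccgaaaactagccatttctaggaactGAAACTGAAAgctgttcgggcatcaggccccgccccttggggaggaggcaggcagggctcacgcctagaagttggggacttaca
Irgm2 (chr11:58214727-58215026, plus strand): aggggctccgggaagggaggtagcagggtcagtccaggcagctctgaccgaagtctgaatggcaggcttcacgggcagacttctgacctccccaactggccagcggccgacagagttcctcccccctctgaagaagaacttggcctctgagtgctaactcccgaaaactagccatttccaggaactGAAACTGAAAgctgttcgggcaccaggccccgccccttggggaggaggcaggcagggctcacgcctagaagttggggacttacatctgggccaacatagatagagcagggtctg
The element lay at positions -34 to -25 from the start in Igtp and -64 to -55 in Irgm2. All 6 GTPase promoters listed held it, as did 10 of 18 promoters of the interferon-stimulated list (55.6%), against 569 of 16990 promoters of all measured genes (3.35%). Of the genes of that second list, some rose and others fell, as given above. Both lists were made by role and their shares count members whatever their call, so they describe the lists and not the falls.

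Stress and protein turnover genes rose moderately. Heat shock and unfolded protein response genes were higher in 14 of 22 cases and lower in 2, with a median of 0.35. Atf6, a sensor of unfolded protein in the endoplasmic reticulum, had 10.89, 10.98, 11.11 and 10.75 in PD-1int and 8.14, 7.78, 7.72 and 7.83 in naive, 8.37-fold higher in PD-1int. Sdf2l1, a chaperone partner of that compartment, rose by 1.86, Xbp1 by 0.72 and Hsp90b1 by 0.68. The falls were Hspe1, the mitochondrial co-chaperonin, at -0.44, and Herpud1, of endoplasmic reticulum degradation, at -0.38. Proteasome genes were higher in 12 of 21 cases and lower in 0, none by 2-fold, with Psma1 at 0.58, Psmc4 at 0.48 and Psmb5 at 0.47. Psmc2 rose by 0.51, and with the mean of its probe sets it was not called (0.43, adjusted p = 0.135).

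Apoptosis regulators were split, 6 of 17 higher and 3 lower. The largest rises were inflammatory caspases. Casp1, which cleaves pro-IL-1 and gasdermin, had 10.89, 11.19, 11.10 and 11.03 in PD-1int and 7.27, 7.66, 7.67 and 8.13 in naive, and Casp4, the sensor of intracellular lipopolysaccharide, 9.13, 9.56, 9.56 and 9.48 in PD-1int and 6.27, 6.63, 6.88 and 6.95 in naive. Both were higher than in memory too, by 2.45 (adjusted p = 6.72e-09) and 2.56 (3.52e-09), and neither differed detectably from PD-1hi. The death effectors Pmaip1, which encodes NOXA, and Bak1 rose by 1.47 and 1.02. Bbc3, which encodes PUMA, had 6.48, 6.39, 6.70 and 6.37 in PD-1int and 7.57, 7.22, 7.25 and 7.18 in naive, a log2 difference of -0.82, and Birc2 fell by 0.50. The fall of Cflar, 0.35, was not called with arrays centred on their medians (adjusted p = 0.0687) or without any one of 5 arrays (0.0538 to 0.121).

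MicroRNA genes are read by these arrays mainly through their precursor or host transcript. Of 36 microRNA genes in the list 0 were higher and 3 lower, 8.33% called, against 22.7% of all genes and 3.48% of the 5545 dimmest. The list is dim, with a mean of 5.158 in PD-1int and 5.365 in naive. The mature products of those 3 are shown with the seed, bases 2 to 8, in capitals (RefSeq, GRCm38.p6), to tell apart the families they belong to.
mmu-miR-342-3p (chr12:108658680-108658702, plus strand): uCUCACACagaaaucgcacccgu
mmu-miR-342-5p (chr12:108658638-108658659, plus strand): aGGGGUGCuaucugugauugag
mmu-miR-16-5p (chr3:69009918-69009939, plus strand): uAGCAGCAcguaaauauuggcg
mmu-miR-16-2-3p (chr3:69009960-69009981, plus strand): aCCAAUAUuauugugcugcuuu
mmu-miR-18a-5p (chr14:115043867-115043889, plus strand): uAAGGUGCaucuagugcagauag
mmu-miR-18a-3p (chr14:115043908-115043929, plus strand): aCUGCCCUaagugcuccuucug
The 6 products have 6 different seeds. Mir342 had 7.88, 6.94, 7.35 and 7.52 in PD-1int and 8.52, 9.17, 9.77 and 8.98 in naive, a log2 difference of -1.69 ± 0.34 (SE, adjusted p = 0.0011). It lies in Evl, a regulator of actin filaments, whose own level fell by 1.24. Mir16-2 had 6.09, 5.83, 5.78 and 5.74 in PD-1int and 6.43, 5.92, 6.94 and 6.43 in naive, a log2 difference of -0.57, with some overlap between the subsets, and it lies in Smc4, a chain of condensin, which fell by 0.80. Mir18, of the polycistron also known as miR-17-92, had 5.44, 4.96, 5.04 and 4.92 in PD-1int and 6.54, 5.63, 6.69 and 5.52 in naive. The call on Mir16-2 was lost without naive array 3 or PD-1int array 4 (adjusted p 0.0704 and 0.0512), and that on Mir18 without any one of 4 arrays (0.0523 to 0.0826).

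Beyond that list, the microRNA cluster within Sfmbt2 on chromosome 2 was singled out after its values were seen. Sfmbt2, a Polycomb-type gene, had 5.29, 5.10, 5.41 and 5.19 in PD-1int and 5.87, 6.27, 6.32 and 6.04 in naive, a log2 difference of -0.88 (adjusted p = 2.28e-04). Of 22 microRNA genes measured within it, 8 were lower, 0 higher and 14 not called, with a median of -0.16. Mir669j had 4.79, 4.46, 4.40 and 5.23 in PD-1int and 7.90, 7.61, 8.07 and 6.96 in naive, and Mir669i, Mir669k and Mir669g fell by 2.19, 1.96 and 1.45. Members of this family are near-identical in sequence, so which of them changed is uncertain. Of 6 microRNAs that were higher and lie in a single measured host, 5 had a host that was not called and 1 a host that was higher. That one was Mir1948, at 3.32 ± 0.42 (SE), in Ttc39c, at 3.37 ± 0.13 (SE). Of the 18 lower microRNAs that lie in a single measured host, 10 had a host that was lower, 7 a host not called and 1, Mir5100 in Mief2, a host that was higher. Those 10 lie in 3 hosts, 8 of them in Sfmbt2, so the count rests mainly on that gene. Of 219 microRNAs that were not called, 42 lay in a host that was lower (19.2%).

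PD-1int cells were also set against memory and PD-1hi cells in the same fit, to find genes whose level in PD-1int was the highest or lowest of the 4 subsets. PD-1int differed from memory in 3584 genes (16.2%) and from PD-1hi in 734 (3.31%), of which 105 by at least 2-fold (0.473%). The count against PD-1hi fell to 470 without PD-1int array 1 and to 474 without PD-1hi array 4. Called highest against all 3 subsets were 45 genes (0.203%), and called lowest 10 (0.0451%), together 55, with 30 left without PD-1int array 4 and 36 without PD-1hi array 4.

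Cyp17a1, an enzyme of steroid hormone synthesis, stood furthest apart. It had 10.53, 9.52, 9.83 and 10.37 in PD-1int, 7.01, 6.48, 7.35 and 7.36 in PD-1hi, 7.08, 6.80, 6.54 and 7.12 in memory and 5.48, 5.14, 5.54 and 5.84 in naive. Every PD-1int array lay more than 2 log2 units above every array of the other subsets. PD-1int was higher than PD-1hi by 3.01 (adjusted p = 8.78e-07), than memory by 3.18 (1.57e-08) and than naive by 4.56 (4.27e-11). The call held in each of 16 fits that left out 1 array and under the 7 other alternatives.

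Klrb1f, of the NKR-P1 family of lectin-like receptors, had 9.32, 10.08, 10.07 and 10.32 in PD-1int, 8.59, 7.80, 9.11 and 8.96 in PD-1hi, 7.57, 7.75, 7.65 and 7.67 in memory and 6.77, 6.0, 6.92 and 5.69 in naive. Mcam, the adhesion molecule CD146, had 8.62, 8.40, 8.72 and 8.82 in PD-1int, 7.31, 7.35, 7.95 and 7.47 in PD-1hi, 6.94, 6.88, 7.14 and 6.94 in memory and 6.77, 6.75, 6.88 and 6.74 in naive. Itgax, the CD11c integrin chain, had 9.61, 10.43, 10.39 and 10.05 in PD-1int, 7.90, 8.93, 9.12 and 8.02 in PD-1hi, 8.76, 9.28, 9.13 and 8.95 in memory and 5.85, 6.43, 5.78 and 6.33 in naive. No array of another subset reached the PD-1int arrays for these 3 genes, and each call held under all alternatives. Slc25a33, a mitochondrial carrier of pyrimidine nucleotides, held in each of the 16 fits that left out an array, with PD-1int higher than PD-1hi by 0.84. Ccr2 and Rnf43, a ubiquitin ligase that removes Wnt receptors, each held in 11 of the 16, Klrg1 and Cmklr1, the chemerin receptor, each in 10, and Klrk1 in 4. Without some of the arrays these 5 were thus not called against all 3 subsets.

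Of the 10 lowest genes, Actn1, Cxcr6, N4bp2, Arhgap39 and Smc4 held in all 16 such fits. Cxcr6, a chemokine receptor of tissue-resident and exhausted cells, had 8.93, 9.93, 9.32 and 8.91 in PD-1int, 10.10, 10.76, 10.26 and 10.47 in PD-1hi, 9.87, 10.08, 9.93 and 10.17 in memory and 10.06, 9.72, 10.24 and 10.05 in naive. PD-1int array 2 of Cxcr6 overlapped with memory and naive arrays, and the other PD-1int arrays lay below all others. N4bp2 had 7.69, 7.89, 7.87 and 8.0 in PD-1int, 8.37, 8.40, 8.28 and 8.48 in PD-1hi, 9.38, 9.32, 9.28 and 9.38 in memory and 9.56, 9.48, 9.43 and 9.42 in naive, with no overlap. Tmlhe, an enzyme of carnitine synthesis, held in 13 of the 16 fits, Lysmd2 in 11, Il6st in 10, Ppp2r3a, a subunit of a protein phosphatase, in 9 and Coq8a, of coenzyme Q synthesis, in 4. Coq8a was also not called with the array number as a block, with quantile normalization, with arrays centred on their medians or with trend and robust settings. Of the genes above all 3 other subsets, Klrk1 also lost the call with arrays centred on their medians and Cmklr1 with array weights.

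**Figure D5:**
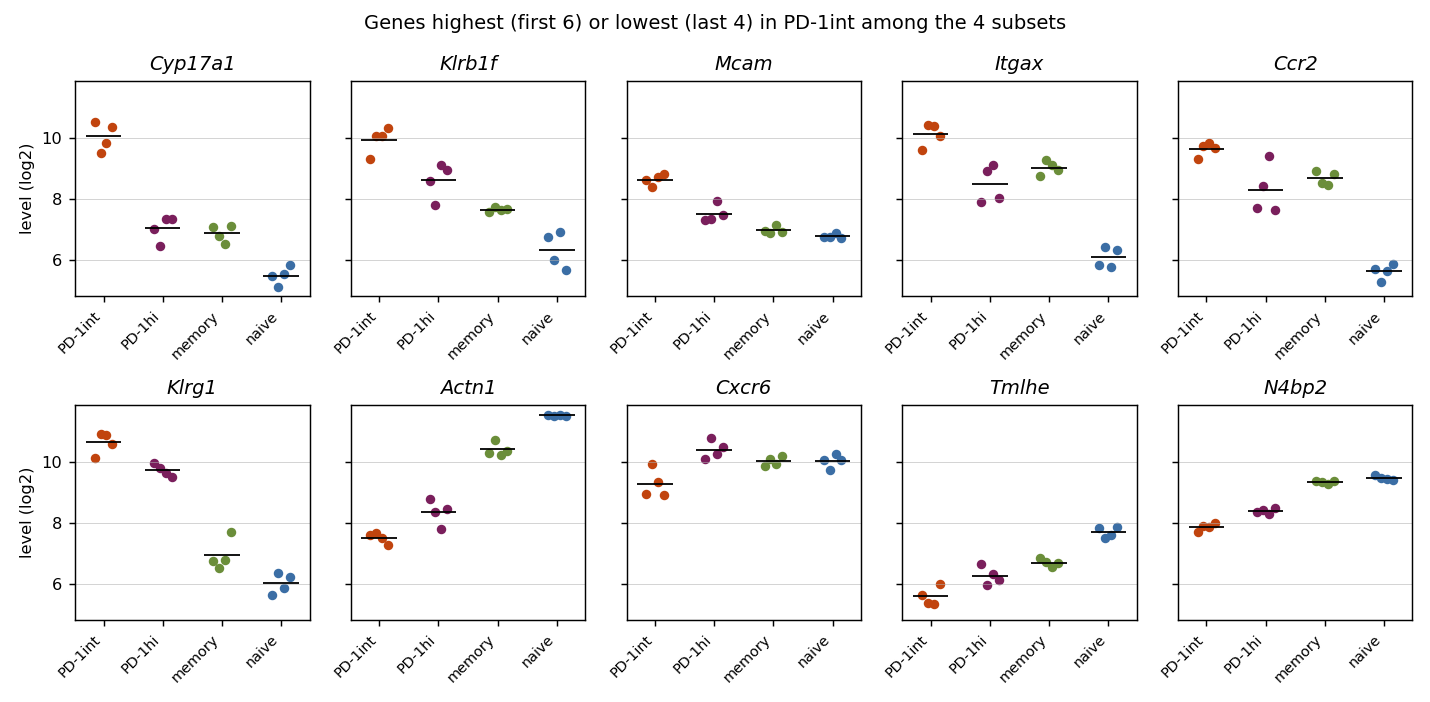
Log2 level (vertical axis) of 10 genes in each array, by subset from left to right PD-1int, PD-1hi, memory and naive; points are arrays and lines their means. The first 6 genes are highest in PD-1int and the last 4 lowest, with Cyp17a1 between 9.52 and 10.5 in PD-1int and at most 7.36 in the other subsets.

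Most markers of other cells were not called, as holds for genes in general, of which 22.7% were called. The shares higher and lower were 11.8% and 23.5% for B-cell, 19% and 0% for myeloid and 20% and 30% for CD4 markers. They were 28.6% and 0% for natural killer markers and 0% for plasma-cell and erythroid markers, against 11.9% and 10.8% of all genes. Of 17 B-cell and leukemia markers, 2 were higher and 4 lower. The log2 of the summed level of these markers ranged from 10.85 to 11.32 in PD-1int and from 12.84 to 12.96 in naive. Such a sum rests on the brightest probe sets, and in naive most of it was Ighm. The mean log2 level over the list was 6.29 in PD-1int and 6.41 in naive, and the median log2 difference was -0.01. Ighm, the heavy chain of IgM, had 10.10, 9.36, 9.02 and 10.11 in PD-1int and 12.62, 12.63, 12.57 and 12.69 in naive, while Cd79a averaged 6.24 ± 0.28 in PD-1int and 6.32 ± 0.34 in naive and Ms4a1 5.54 ± 0.43 in PD-1int and 5.35 ± 0.26 in naive, neither of them called. Cd22 rose by 1.74 and Fcrl1 by 0.84, and Cd79b, Bank1 and Pou2af1 fell by 0.72, 0.83 and 0.38. Of 21 myeloid and dendritic markers, 4 were higher and 0 lower: Itgax, Ccr2, Itgam (1.55) and Cst3 (0.49, adjusted p 0.0984 with the mean of its probe sets). Effector T cells can express the first 3 as well, and which cells these values come from was not tested. Lyz2 averaged 6.20 ± 0.42 in PD-1int and 5.93 ± 0.25 in naive, and Csf1r 6.38 ± 0.12 in PD-1int and 6.33 ± 0.26 in naive, and neither was called. The summed level of the list ranged from 12.96 to 13.56 in PD-1int and from 12.73 to 12.96 in naive. It ranged from 13.76 to 13.92 in memory and from 12.07 to 12.59 in PD-1hi. This sum, too, rests on the brightest probe sets and does not measure the share of myeloid cells.

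Of 10 CD4 and regulatory T-cell markers, 2 were higher (Gata3 by 0.51 and Zbtb7b by 0.26, each lost under at least 1 alternative) and 3 lower (Tnfrsf25 by 0.92, St8sia6 by 0.53 and Ikzf4 by 0.56), and Cd4 and Foxp3 differed by 0.07 and -0.16 and were not called. The summed level ranged from 10.96 to 11.07 in PD-1int and from 11.02 to 11.19 in naive. Of 7 natural killer and innate-like markers, 2 were higher (Cd160 by 0.70 and Tyrobp by 0.51), 1 without any one of 4 arrays and 4 in the fit of the 8 arrays alone, and Ncr1 differed by -0.09, not called. Their summed level ranged from 9.26 to 9.32 in PD-1int and from 8.88 to 9.06 in naive. None of 5 plasma-cell and none of 6 erythroid and platelet markers was called, with 1 of the erythroid and platelet markers called higher in the fit of the 8 arrays alone and without naive array 4. The summed level of the plasma-cell markers ranged from 8.54 to 8.63 in PD-1int and from 8.60 to 8.68 in naive, and that of the erythroid and platelet markers from 9.18 to 9.59 in PD-1int and from 9.09 to 9.35 in naive. An array has no level of 0, so absence cannot be read from these values, and the part of other cells in the differences above was not tested.

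The PD-1int arrays were about as alike as the naive arrays. The median SD of a gene was 0.131 over the 4 PD-1int arrays and 0.143 over the 4 naive arrays. An SD above 1 was found for 17 genes in PD-1int and 13 in naive. Of the 8 genes with the largest SD in PD-1int, 5 were microRNA genes, 1 a small nucleolar RNA, 1 a predicted gene and 1 Rabggtb, a subunit of an enzyme that prenylates Rab proteins. Mir505 had 6.90, 5.28, 6.96 and 9.51 in PD-1int and 6.49, 9.10, 4.35 and 4.09 in naive, a wide spread in both subsets. Gm11568, of unnamed function here, was the single one of the 8 that was called, with 5.64, 6.19, 3.21 and 6.77 in PD-1int and 3.08, 3.49, 3.02 and 3.27 in naive, and its PD-1int array 3 lay within the naive range.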

How the data were processed

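RNA of sorted spleen CD8 T cells was amplified and hybridised to Affymetrix Mouse Gene ST arrays, 1 array a sample and 4 per subset. The deposited values are log2 signals made by the authors with Affymetrix Power Tools, per the submitters' processing notes; the summarisation method is not given in the sources used here. They were used as deposited.

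Of 41345 probe sets, 23521 have 1 gene symbol, 1814 several and 16010 none, by the platform annotation. Those with 1 symbol gave 22180 genes, each read by its probe set with the highest mean over the 16 arrays (1082 genes had several). limma 3.58.1 in R 4.3.3 fitted a mean per subset over all 16 arrays with eBayes, and p-values were adjusted by Benjamini-Hochberg over all genes for each contrast. The number of arrays limits the precision. On simulated data for PD-1int against naive (22180 genes), 57 of 100 genes changed by 0.5 and 95 of 100 changed by 1 (log2) were recovered, with 9 false calls among 21980 unchanged genes. Far fewer genes changed in the simulation than were called in the data, and its noise was normal and independent between genes. Recovery in the data may therefore differ from these rates.

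The lists and the comparison were chosen with earlier results of these data known. Genes named were drawn from the 15 largest rises and falls without overlap between arrays. Up to 4 members per list and direction with the smallest adjusted p, and members against their list's direction, were added. The 10 highest and lowest against all 3 subsets, the 8 with the largest SD in PD-1int, and the gate and identity genes completed the pool. Not every gene of this pool is named. Predicted loci, small RNAs and receptor segments were left out of the size ranking. Other genes named (small RNAs and their hosts, marker genes of other cells that were not called, Gzmm, Ctsw, Birc5 and Dtl) were chosen after their values were seen, Birc5 and Dtl by rise and listed promoter. The alternatives were the array number as a block, the 8 arrays alone, a filter on the 40% dimmest genes, the mean of probe sets, array weights, an eBayes prior with a trend and robust fitting, quantile normalization, centring of each array on its median, and leaving out each array.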

Additional observations from a re-analysis of the deposited data

Results flagged for a closer look

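In 10 of 182 sets of 4 arrays, the highest or lowest array was separated from its nearest neighbour by a larger share of the whole range of the set than Dixon's test allows at its 95% level. Chance flags about 1 set in 20, so a count of this size is near that share.

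Among single genes, S100a6 in naive had a gap share of 0.931, with arrays at 6.10, 6.16, 6.10 and 6.96, and Ctla2b in naive 0.955, with arrays at 5.28, 5.30, 5.74 and 5.29. In both, 1 naive array stood above the rest and still far below every PD-1int array. Zdhhc2 in PD-1int had 0.833, with arrays at 9.84, 10.05, 10.03 and 10.07, and Treml2 in PD-1int 0.87, with arrays at 7.30, 7.30, 6.20 and 7.16. Cd8a in PD-1int had 0.887, with arrays at 11.31, 11.70, 11.34 and 11.35, array 2 being the high one.

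Among list means, the cholesterol and fatty acid synthesis mean in PD-1int had 0.863 (8.80, 8.89, 8.90 and 8.89), and the CD4 and regulatory T-cell mean in PD-1int 0.895 (6.91, 6.91, 6.90 and 6.85). In naive, the proteasome mean had 0.893 (10.02, 10.03, 10.02 and 10.10), the B-cell and leukemia marker mean 0.864 (6.37, 6.37, 6.35 and 6.53) and the natural killer and innate-like mean 0.83 (5.91, 5.89, 5.88 and 6.07). Naive array 4 was the high one in these 3 means.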

How the results depend on the processing

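The count of genes called against naive lay between 4591 (the 8 arrays alone) and 5089 (trend and robust settings) under 8 alternatives, and between 4505 and 4814 with 1 array left out. With arrays centred on their medians 56.4% of 4847 calls were higher in PD-1int, against 52.4% as deposited. With 1 array left out, the count ranged from 3040 to 3372 against memory, from 470 (without PD-1int array 1; 474 without PD-1hi array 4) to 751 against PD-1hi, and from 30 (without PD-1int array 4; 36 without PD-1hi array 4) to 54 against all 3 subsets. With the array number as a block the counts were 5025, 3576, 748 and 57. Deviations of same-numbered PD-1int and naive arrays correlated at -0.000472, 0.0692, 0.00203 and 0.0715, and 2 of 4 PD-1int arrays correlated best with their own number, as did 2 of 4 with memory and 3 of 4 with PD-1hi. In none of the 3 comparisons were all 4 correlations above 0.1. The titles carry the same array numbers in each subset but do not say what the numbers mean. The main fit therefore did not treat them as pairs, and the block was run as an alternative. Weak correlations cannot exclude pairs, and whether the numbers mark shared mice is unknown. Of 232 called genes among 240 named, 214 kept call and direction under every alternative run and 18 lost the call under at least 1, and 0 changed sign. Of 76 list counts, 14 moved by over 1.5 times under at least 1 alternative. Low signal limits what can be called among dim genes. The cause of these shifts was not tested.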
